A study of Mus musculus and Rattus norvegicus with 32 samples.

Results

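The 9 genes described here encode parts of adrenergic signaling. They are 3 receptors (Adrb1, Adra1a and Adra1b), 3 adenylyl cyclases (Adcy1, Adcy5 and Adcy6) and 3 cyclic nucleotide phosphodiesterases (Pde3a, Pde4b and Pde4d). They were chosen by symbol, and each had 1 row among the 55487 genes of the mouse tables and 1 row among the 32883 genes of the rat table. RNA was sequenced from 32 samples in 8 groups of 4. At 1 month of age, hearts of mice labelled METTL5-KO, a whole-body knockout of the rRNA m6A methyltransferase METTL5, were compared with those of control littermates. At 3 months, hearts labelled METTL5-cKO were compared with control hearts. In METTL5-cKO mice, exons 2 to 4 of a floxed Mettl5 allele are removed by Cre under the Myh6 (αMHC) promoter, so the deletion is meant for cardiomyocytes and the other cells of the heart keep the gene. The same genotypes were compared 4 weeks after TAC (transverse aortic constriction, a surgical narrowing of the aorta that puts the left ventricle under pressure overload), with an age of 3 months in the labels. All mice were C57BL/6, and whether the control mice carried Cre is not given in the sources used here. Finally, NRVMs (neonatal rat ventricular cardiomyocytes from Sprague Dawley rats, pre-plated to remove fibroblasts) received AdMETTL5, an adenovirus with the human METTL5 coding sequence, or AdGFP, and both groups were treated with 20 μM PE (phenylephrine, an agonist of α1-adrenergic receptors) for 24 h.

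Noradrenaline and adrenaline act on the heart mainly through β1-adrenergic receptors, encoded by Adrb1, which couple to the stimulatory G protein and so to adenylyl cyclase. The cyclases make cAMP, which activates protein kinase A (PKA) and raises the rate and force of contraction, and phosphodiesterases break cAMP down again. Adcy5 and Adcy6 encode the main cyclases of cardiomyocytes, whereas Adcy1 encodes a calcium-calmodulin stimulated cyclase best known from neurons. Pde3a encodes a phosphodiesterase inhibited by cGMP, and Pde4b and Pde4d encode cAMP-specific ones. The α1-adrenergic receptors encoded by Adra1a and Adra1b act through Gq, phospholipase C and protein kinase C, and drive hypertrophic growth of cardiomyocytes in culture.

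RefSeq promoter sequences of the GRCm38.p6 mouse genome (300 bases each, from 250 bases before a transcription start) were matched for 6 of the 9 genes, with 10 start sites in all. Those of Adrb1, Adcy1, Adcy5 and the first listed start of Pde4b are printed 5′ to 3′ on the gene's own strand because the results turn on these genes. Capitals mark the core of the cAMP response element, TGACG or CGTCA on the other strand, to which CREB-family factors bind.
Adrb1 (chr19:56721867-56722166, plus strand): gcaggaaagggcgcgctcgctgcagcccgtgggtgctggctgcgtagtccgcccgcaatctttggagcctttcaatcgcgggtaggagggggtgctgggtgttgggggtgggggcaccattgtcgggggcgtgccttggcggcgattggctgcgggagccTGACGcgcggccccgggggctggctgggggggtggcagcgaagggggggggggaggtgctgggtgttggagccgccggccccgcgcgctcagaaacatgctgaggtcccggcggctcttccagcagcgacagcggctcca
Adcy1 (chr11:7063183-7063482, plus strand): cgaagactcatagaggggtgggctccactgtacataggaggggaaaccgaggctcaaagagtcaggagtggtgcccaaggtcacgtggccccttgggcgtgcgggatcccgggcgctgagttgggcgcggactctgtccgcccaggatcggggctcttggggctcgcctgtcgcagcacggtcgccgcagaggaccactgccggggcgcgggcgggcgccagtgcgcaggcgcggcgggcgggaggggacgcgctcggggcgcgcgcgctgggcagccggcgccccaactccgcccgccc
Adcy5 (chr16:35154614-35154913, plus strand): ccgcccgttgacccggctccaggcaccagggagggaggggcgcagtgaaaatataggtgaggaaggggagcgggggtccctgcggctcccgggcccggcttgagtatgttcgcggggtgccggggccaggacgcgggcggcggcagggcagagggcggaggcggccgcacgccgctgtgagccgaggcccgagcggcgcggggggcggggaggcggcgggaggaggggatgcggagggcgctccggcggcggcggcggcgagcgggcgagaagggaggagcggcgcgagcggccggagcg
Pde4b (chr4:102421305-102421604, plus strand): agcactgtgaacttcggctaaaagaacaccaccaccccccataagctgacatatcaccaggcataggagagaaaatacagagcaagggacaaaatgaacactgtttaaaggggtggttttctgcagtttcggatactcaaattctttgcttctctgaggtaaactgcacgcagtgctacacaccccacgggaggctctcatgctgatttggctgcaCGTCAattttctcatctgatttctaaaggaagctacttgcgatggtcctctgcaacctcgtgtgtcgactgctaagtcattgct
The core stood once in the Adrb1 sequence, 90 bases before the start, and once in the Pde4b sequence, 34 bases before the start. It was not among these letters in the Adcy1 and Adcy5 sequences or at the other 6 start sites. Of all 32851 promoter sequences in the table, 20.8% held the core and 1.79% the full site TGACGTCA, which none of the 10 held. The Adcy1 and Adcy5 sequences were rich in G and C (74% and 79%), whereas that of Pde4b had 47% and the median of all promoters was 52.7%.

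In the GRCm38 annotation, Adrb1 lies on chromosome 19 (56722199 to 56733113, plus strand), Adra1a on chromosome 14 (66635251 to 66771168, plus strand) and Adra1b on chromosome 11 (43774606 to 43901210, minus strand). Adcy1 lies on chromosome 11 (7063489 to 7178506, plus strand), Adcy5 on chromosome 16 (35154877 to 35305738, plus strand) and Adcy6 on chromosome 15 (98589973 to 98610076, minus strand). Pde3a lies on chromosome 6 (141249269 to 141507448), Pde4b on chromosome 4 (102087543 to 102607259) and Pde4d on chromosome 13 (108449948 to 109953461), all on the plus strand. Adcy5, Adcy6, Pde3a and Pde4d overlap other annotated genes, 5 of them in the case of Pde4d, and reads of these cannot be told apart where the counting used no strand. The other 5 members overlap none. Of the pathway genes named below for the TAC hearts, Gnao1, Grk5, Tnni3, Rapgef3, Popdc3 and Prkca also overlap other annotated genes.

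Total counts per library ranged from 14324700 to 21804907, with the AdMETTL5 NRVMs the shallowest (up to 14642431). No pair of libraries within a group agreed within sampling noise. Control library 1 at 1 month stood apart from its group: its median correlation with the other control libraries was 0.943, against 0.964 to 0.967 for those. The labels do not tie each sample to 1 animal or culture, so the p-values measure the spread between these samples. Summed over its whole gene, the Mettl5 count overlapped between the genotypes in all 3 mouse tables. In METTL5-cKO hearts that count also holds reads outside the floxed exons and from cells other than cardiomyocytes. Mettl5 overlaps other annotated genes too, 1 on each strand, and reads of these may be part of the count. How the whole-body knockout allele was made is not given in the sources used here. The Mettl5 level was 5.11 ± 0.664 CPM (counts scaled to a common library total; SD, n = 4) in control hearts and 5.96 ± 0.806 CPM in METTL5-KO hearts at 1 month, 7.35 ± 0.553 and 6.50 ± 0.730 CPM at 3 months, and 6.74 ± 0.751 and 6.58 ± 0.763 CPM after TAC (edgeR, adjusted p = 0.973, 0.884 and 0.874). The count of the whole gene does not check the floxed exons, and the genotypes below are those of the labels. The rat Mettl5 row was 17.0 ± 0.773 CPM with AdGFP and 21.2 ± 1.76 CPM with AdMETTL5 (log2 fold change 0.32, adjusted p = 0.00295), and whether reads of the human sequence in the virus were counted there was not tested. In every mouse group the cardiomyocyte markers summed to 27050 CPM or more, and those of adipocytes to 0.302 CPM or less.

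All 9 genes passed the filter on low counts in all 4 tables, Adcy1 in NRVMs only through the AdMETTL5 libraries. CPM values are scaled by TMM within a table. Unless another tool is named, adjusted p-values are those of edgeR's quasi-likelihood test after Benjamini-Hochberg adjustment over all genes of the table, and a gene was called when its adjusted p was under 0.05. The exact permutation p for a single gene compares the mean log2 CPM over the 70 ways to label 4 against 4 libraries and cannot go below 0.0286.

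Levels were compared between genes per kilobase of exon, as CPM per kb under a joint scaling of the 24 mouse libraries. Adcy6 had the highest level in all 6 mouse groups, from 14.2 ± 3.46 CPM per kb in METTL5-cKO hearts after TAC to 32.2 ± 13.6 CPM per kb in control hearts at 1 month (SD, n = 4). Adcy5 was second in each, from 3.96 ± 0.491 CPM per kb in control hearts at 1 month to 6.45 ± 1.46 CPM per kb in METTL5-cKO hearts at 3 months. The lowest Adcy6 library (10.1 CPM per kb) lay above the highest Adcy5 library (7.75 CPM per kb). Adrb1, Adra1b and Pde3a followed with means of 1.36 to 4.15 CPM per kb, and their ranges overlapped in every mouse group but METTL5-cKO hearts after TAC, where the highest Adra1b library (1.57 CPM per kb) was below the lowest Pde3a library (1.82 CPM per kb). Pde4b and Pde4d came next in all 6 groups, and their ranges overlapped in METTL5-KO hearts at 1 month and in both groups at 3 months. In control hearts at 1 month Pde4d was above Pde4b in every library, and after TAC Pde4b was above Pde4d in both groups. Adra1a was eighth in each group, at 0.250 ± 0.0691 to 0.691 ± 0.364 CPM per kb. Adcy1 was lowest throughout, between 0.0527 ± 0.0115 CPM per kb in METTL5-cKO hearts after TAC and 0.191 ± 0.0447 CPM per kb in control hearts at 3 months. The ranges of Adra1a and Adcy1 overlapped in both groups at 1 month and in none of the other 4. The Adcy1 count in the mouse libraries was between 13 and 66, so its values carry more counting error than those of the other genes.

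**Figure D1:**
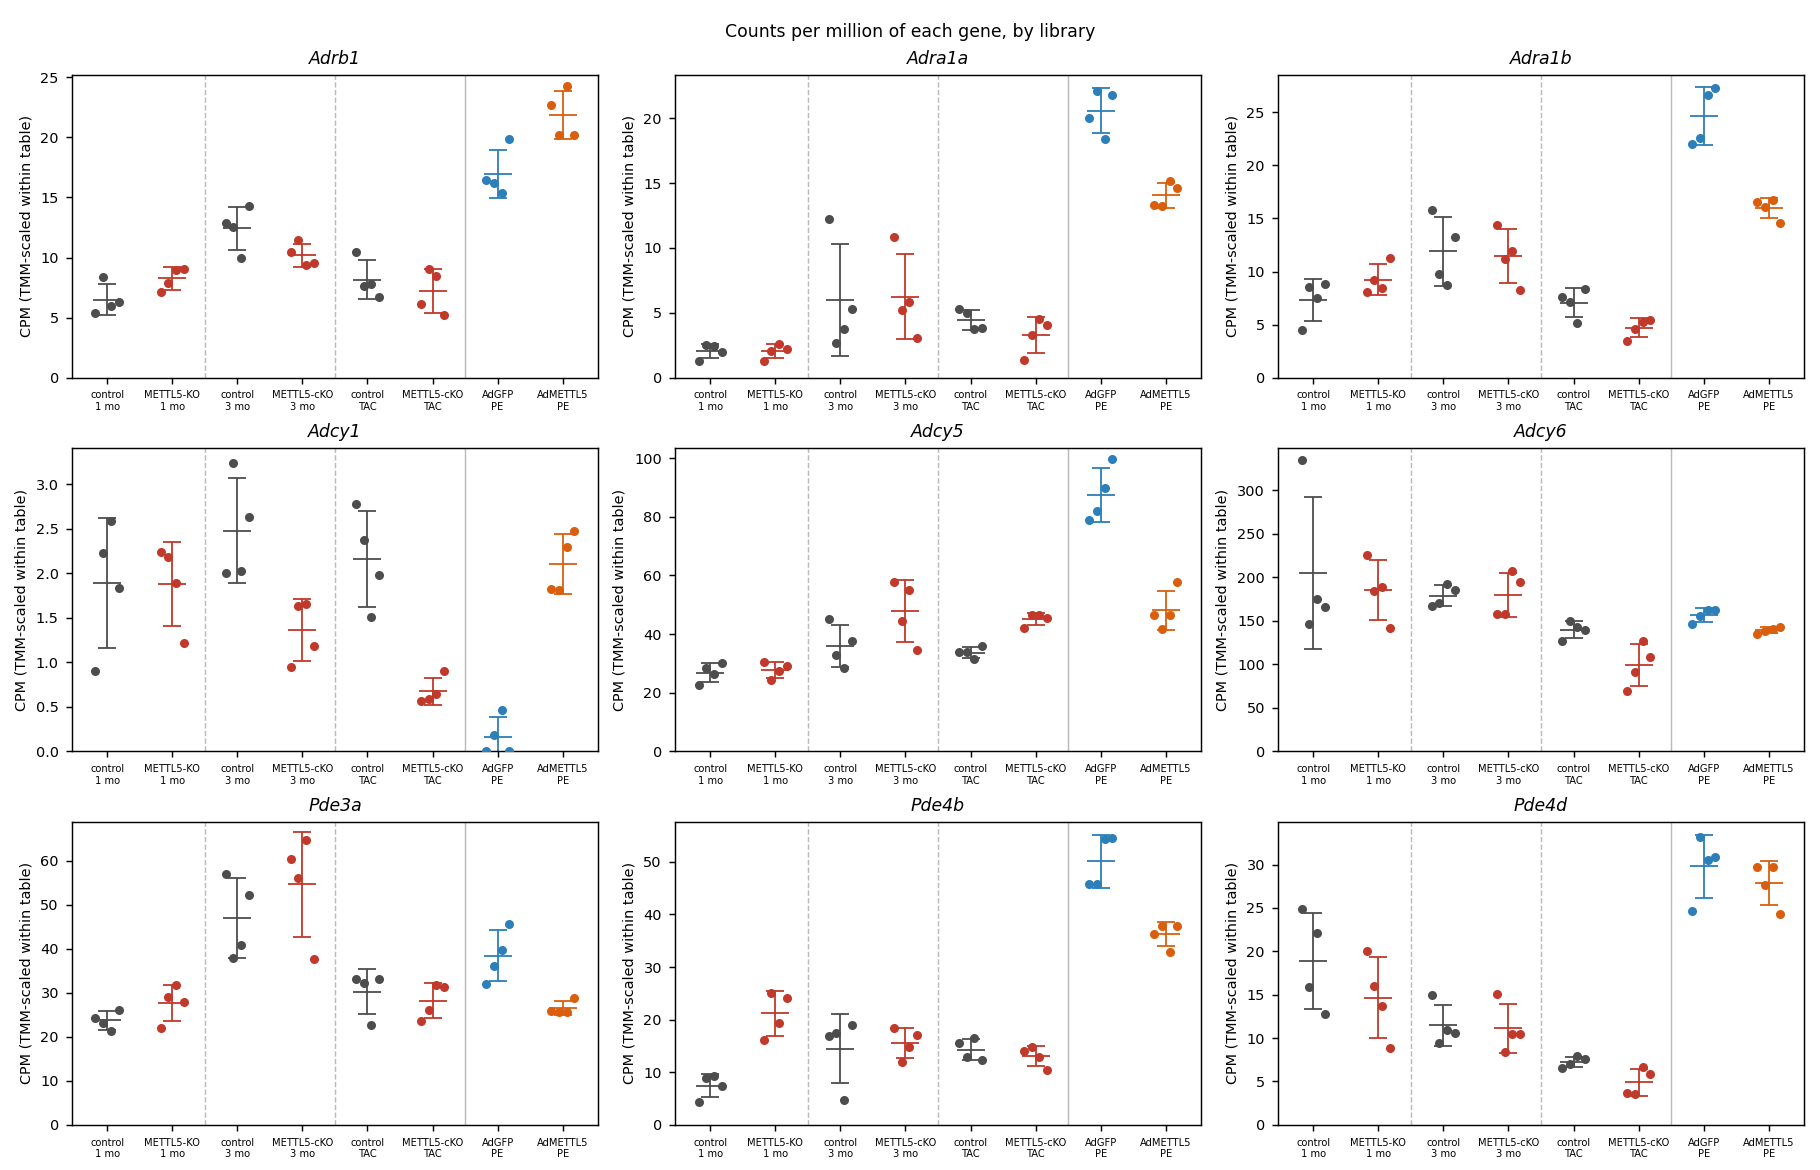
CPM of the 9 genes (y axis, linear, scaled by TMM within each table) in each of the 32 libraries (points), with the mean and SD of each group of 4. Solid and dashed lines divide the 4 tables, whose levels share no common scaling. In the mouse hearts Pde4b is higher in every METTL5-KO library at 1 month (16.1 to 25.1 CPM) than in the controls (4.34 to 9.23 CPM), and Adcy1 is lowest in METTL5-cKO hearts after TAC.

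The first comparison asked whether loss of METTL5 in the whole body was accompanied by a change of these genes in the young heart. None of the 9 genes was called at 1 month, where 1 of 16329 genes was called in all (0.00612%). At an unadjusted p under 0.05, 1 of the 9 passed (Pde4b), against 4.57% of all genes, and DESeq2 called the same gene, against 0.0600% of the genes it tested. Pde4b was 4.34, 8.97, 9.23 and 7.32 CPM in control libraries 1 to 4, and 16.1, 25.1, 19.3 and 24.2 CPM in METTL5-KO libraries 1 to 4. Every METTL5-KO library was above every control library, as for 1.52% of all genes. The log2 fold change was 1.51 (95% confidence interval 0.97 to 2.05, SE 0.239), with an unadjusted p of 1.1e-04 and an adjusted p of 0.462. The exact permutation p was 0.0286, and DESeq2 gave an adjusted p of 2.4e-05. The call thus depended on the tool. Without control library 1, the lowest for Pde4b, the log2 fold change was 1.32 and the adjusted p 0.175, and over all libraries left out in turn they ranged from 1.32 to 1.63 and from 0.175 to 0.999. In heart tissue, more cells of a type and more RNA per cell cannot be told apart.

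The other genes of the 1 month table had overlapping groups. Among the receptors, Adrb1 was 5.36, 8.35, 5.97 and 6.33 CPM in control hearts and 7.13, 7.85, 8.99 and 9.08 CPM in METTL5-KO hearts (log2 fold change 0.35, interval -0.01 to 0.70). Adra1b had a log2 fold change of 0.34 (interval -0.14 to 0.82) and Adra1a one of -0.01 (interval -0.63 to 0.61). Of the cyclases, Adcy1 and Adcy5 differed by 0.01 and 0.06 on the log2 scale. Adcy6 was 146 to 175 CPM in 3 control libraries and 335 CPM in control library 1, and 142 to 226 CPM in METTL5-KO hearts. Its log2 fold change was -0.15, and 0.20 without control library 1, so its direction rested on that library. Among the phosphodiesterases, Pde3a had a log2 fold change of 0.22 and Pde4d one of -0.37 (adjusted p = 0.973 for both).

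Because Pde4b and Pde4d hydrolyse the same substrate, their count ratio was read in each library. Pde4b counts were 0.175 to 0.571 of the Pde4d counts in the control hearts at 1 month and 0.804 to 2.74 in the METTL5-KO hearts. At 3 months the ratio was 0.442 to 1.83 in control hearts and 1.22 to 1.62 in METTL5-cKO hearts, and these ranges overlapped. No marker gene of another cell type was called by edgeR at 1 month, and DESeq2 called 1, an endothelial one. At an unadjusted p under 0.05, 3 markers of smooth muscle and pericytes and 1 endothelial marker passed. The fibroblast list summed to 515 to 1013 CPM in control and 751 to 1074 CPM in METTL5-KO hearts, and the macrophage list summed to 145 to 311 and 176 to 209 CPM. The endothelial list was 1556 to 1680 CPM in control and 1201 to 1547 CPM in METTL5-KO hearts, without overlap, and its part in the Pde4b difference was not tested.

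At 3 months, without surgery, none of the 9 genes was called either, against 12 of 16391 genes in all (0.0732%). DESeq2 called none of the 9, against 0.599% of the genes it tested. At an unadjusted p under 0.05, 3 of the 9 passed (Adrb1, Adcy1 and Adcy5), against 7.05% of all genes. Adcy1 was 2.00, 3.24, 2.03 and 2.64 CPM in control libraries 1 to 4 and 0.948, 1.64, 1.66 and 1.19 CPM in METTL5-cKO libraries 1 to 4. All 4 METTL5-cKO libraries were below all control libraries, as for 2.04% of all genes. The log2 fold change of Adcy1 was -0.86 (interval -1.40 to -0.33, SE 0.237, adjusted p = 0.381, exact permutation p = 0.0286). Over the libraries left out in turn it lay between -0.98 and -0.71.

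Adcy5 was 45.2, 32.8, 28.4 and 37.7 CPM in control hearts and 57.7, 44.6, 55.1 and 34.6 CPM in METTL5-cKO hearts at 3 months. The groups overlapped, since METTL5-cKO libraries 2 and 4 lay below control library 1, and the log2 fold change was 0.41 (interval 0.00 to 0.83, adjusted p = 0.709). Adrb1 was 12.9, 12.5, 9.99 and 14.3 CPM in control hearts and 10.5, 11.4, 9.38 and 9.51 CPM in METTL5-cKO hearts (log2 fold change -0.29, adjusted p = 0.706). Adcy6 was nearly level between the groups, at 179.2 ± 11.9 and 179.6 ± 25.6 CPM, and its interval ran from -0.25 to 0.25. Adra1a varied most within its groups, from 2.70 to 12.3 CPM in control and from 3.09 to 10.8 CPM in METTL5-cKO hearts. Library 1 was the highest of each group. The remaining genes had log2 fold changes between -0.05 (Adra1b and Pde4d) and 0.22 (Pde3a). For Pde4b, control library 3 was 4.81 CPM and the other controls 16.8 to 18.9 CPM. None of the marker genes was called by edgeR at 3 months. DESeq2 called 2 of 9 fibroblast and 1 of 8 endothelial markers, and at an unadjusted p under 0.05 the edgeR fit passed 7 and 3 of these, 4 of 8 macrophage markers, 3 of 8 markers of smooth muscle and pericytes and 1 of 10 of cardiomyocytes. The fibroblast list summed to 456 to 605 CPM in control and 556 to 814 CPM in METTL5-cKO hearts, and the atrial list to 64.5 to 95.9 and 54.6 to 69.5 CPM. The summed cardiomyocyte list was 52427 to 55567 CPM in control and 46013 to 50013 CPM in METTL5-cKO hearts, without overlap. The part of these cell types in the values was not tested.

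The comparison after TAC asked how the cardiomyocyte deletion bore on these genes under pressure overload. Of the 9 genes, 2 were called, against 12.7% of the 16340 genes tested: Adcy1 was lower and Adcy5 higher in METTL5-cKO hearts. At an unadjusted p under 0.05, 5 of the 9 passed, against 31.0% of all genes, and DESeq2 called 4, against 16.9%. The count over all genes, 2071, depended on single libraries: it was 3899 without METTL5-cKO TAC library 4, 1588 without control library 1, and 478 to 1042 without any other (478 without control library 4, 536 without METTL5-cKO library 2). Over the same fits 2 or 3 of the 9 genes were called, Adcy1 and Adcy5 in each. The log2 fold change was below 0 for 8 of the 9, with a median of -0.42, whereas the median over all genes was -0.00. Scaling by library size alone moved the median over all genes to 0.14, and the values of Pde3a and Pde4b then turned to 0.05 and 0.02.

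Adcy1 was 2.77, 2.38, 1.51 and 1.99 CPM in control TAC libraries 1 to 4, from 29 to 56 counts, and 0.569, 0.592, 0.646 and 0.897 CPM in METTL5-cKO TAC libraries 1 to 4, from 13 to 18 counts. The lowest control library lay above the highest METTL5-cKO library, as for 9.16% of all genes. Adcy1 fell by 1.68 on the log2 scale (interval -2.22 to -1.16, SE 0.236, adjusted p = 0.00707, exact permutation p = 0.0286). With 1 library left out at a time, the log2 fold change was between -1.83 and -1.53 and the adjusted p between 0.00141 and 0.0286. It was the only one of the 9 with an absolute log2 fold change over 1, which 2.90% of all genes passed together with the adjusted p.

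Adcy5 was 33.7, 33.8, 31.3 and 35.8 CPM in control TAC hearts and 42.2, 46.6, 46.6 and 45.5 CPM in METTL5-cKO TAC hearts. Within each group the libraries stood close together, and the groups did not overlap, as for 9.41% of all genes in this direction. Adcy5 rose by 0.43 on the log2 scale (interval 0.27 to 0.58, SE 0.0704, adjusted p = 0.0106), and with 1 library left out the adjusted p was 0.00427 to 0.0408. Adcy6, the most abundant of the cyclase transcripts, was 127, 149.9, 143 and 139.6 CPM in control TAC hearts and 69.6, 91.4, 126 and 108 CPM in METTL5-cKO TAC hearts. The groups only just failed to overlap. Its log2 fold change of -0.50 (interval -0.86 to -0.14) was not called (adjusted p = 0.0689), but it was called by DESeq2 (adjusted p = 0.0253) and without METTL5-cKO TAC library 3 (adjusted p = 0.0419). With 1 library left out at a time its adjusted p ranged from 0.0419 to 0.171, and under the other alternatives from 0.0253 to 0.191.

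None of the receptors was called after TAC. Adra1b was 7.58, 7.14, 5.14 and 8.38 CPM in control TAC hearts and 3.46, 4.64, 5.29 and 5.48 CPM in METTL5-cKO TAC hearts, so that control library 3 lay among the METTL5-cKO libraries. Its log2 fold change was -0.58 (interval -0.99 to -0.18, adjusted p = 0.0635). DESeq2 called it (adjusted p = 0.0493). So did edgeR when control TAC library 3 (adjusted p = 0.0468) or METTL5-cKO TAC library 4 (adjusted p = 0.0413) was left out, within a range of 0.0413 to 0.171 over the libraries. Under the other alternatives the adjusted p was 0.0493 to 0.138. Adra1a was 5.30, 4.95, 3.74 and 3.83 CPM in control and 1.40, 3.32, 4.56 and 4.04 CPM in METTL5-cKO TAC hearts (log2 fold change -0.42, interval -1.10 to 0.26). Adrb1 was 8.16 ± 1.60 and 7.21 ± 1.80 CPM (log2 fold change -0.18, interval -0.61 to 0.26).

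None of the phosphodiesterases was called after TAC. Pde4d was 6.59, 6.99, 7.95 and 7.56 CPM in control TAC hearts and 3.68, 3.55, 6.62 and 5.88 CPM in METTL5-cKO TAC hearts. The groups met only at METTL5-cKO library 3, and the log2 fold change was -0.56 (interval -1.01 to -0.11, adjusted p = 0.0945). Pde3a was 30.2 ± 5.11 CPM and 28.2 ± 3.99 CPM, and Pde4b 14.3 ± 2.06 CPM and 13.1 ± 1.90 CPM. Their intervals, -0.42 to 0.22 and -0.43 to 0.17, left changes of either sign possible.

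Other cell types moved with the genotype in the TAC hearts. Of 9 fibroblast markers, 7 were higher and none lower in METTL5-cKO hearts, and their sum was 616 to 807 CPM in control and 967 to 3033 CPM in METTL5-cKO hearts. METTL5-cKO library 4 stood apart from its group here, with 967 CPM against 2050 to 3033 CPM for fibroblast markers and 48490 CPM against 37124 to 39553 CPM for cardiomyocyte markers. It also had the highest Adcy1 level of its group, and without it Adcy1 and Adcy5 had log2 fold changes of -1.83 and 0.43 (adjusted p = 0.00141 and 0.00427). Of 10 cardiomyocyte markers, 4 were lower (sum 52315 to 57480 and 37124 to 48490 CPM), and of 8 endothelial markers, 6 were lower (sum 1263 to 1493 and 811 to 1145 CPM). Of 8 macrophage markers, 3 were higher (sum 216 to 288 and 291 to 382 CPM). Over all genes tested after TAC, 6.57% were called higher and 6.10% lower. The atrial list summed to 57.9 to 70.9 CPM in control and 30.8 to 47.8 CPM in METTL5-cKO hearts, with 1 of its 3 tested genes lower (Kcnj3). Kcna5 had a log2 fold change of -0.39 and Myl4 one of 0.49, neither called, and every METTL5-cKO library was above every control library for Myl4. Its defining genes Myl7 and Bmp10 were at 0 counts in every TAC library. The list of Schwann cells and nerve summed to 6.09 to 11.5 CPM and 3.37 to 6.73 CPM, with 1 of 4 tested genes lower and Th at 0. The part of these cell types in the changes of Adcy1 and Adcy5 was not tested.

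**Figure D2:**
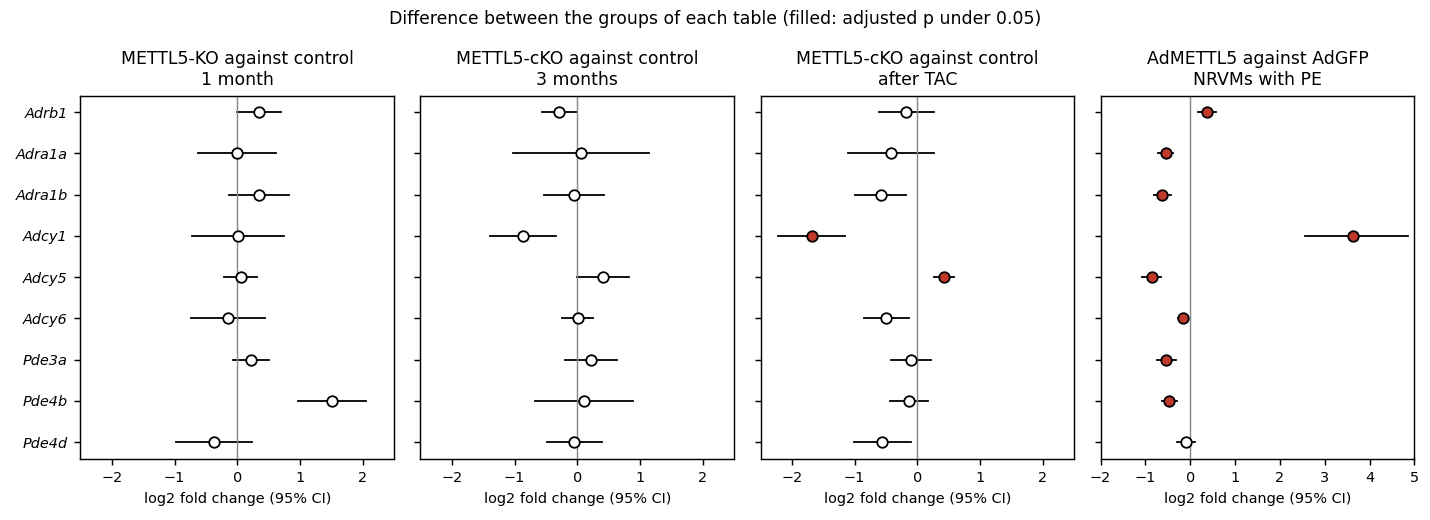
Log2 fold change (x axis) of each of the 9 genes in the 4 comparisons, with 95% confidence intervals as bars. Filled points have an adjusted p under 0.05, and the x axis of the NRVM panel has a wider range. Adcy1 lies at -1.68 after TAC and at 3.64 in NRVMs, and Adcy5 at 0.43 and -0.86. The NRVM value of Adcy1 rests on AdGFP libraries with 0 to 8 counts. Adcy1 passed the filter on low counts there only through the AdMETTL5 libraries, so its filled point is a description and no independent support.

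Whether the genotype differed in its effect between TAC and unoperated hearts was tested as an interaction over the 16 libraries of both tables. None of the 9 genes was called, against 0.00586% of 17070 genes, and 2 passed at an unadjusted p under 0.05, against 11.8% of all genes. These were Adcy1, whose log2 fold change was lower after TAC by a difference of -0.80 (interval -1.54 to -0.08, adjusted p = 0.373), and Adcy6, with a difference of -0.49 (interval -0.92 to -0.05, adjusted p = 0.370). DESeq2 was not run on the interaction. For Adcy5 the difference was 0.03 (interval -0.43 to 0.48). The Adcy1 and Adcy5 changes were thus called after TAC and not at 3 months, but a difference between both settings was not shown. TAC and unoperated hearts were in separate tables, so surgery and table cannot be told apart.

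In PE-treated NRVMs, the reverse intervention was read: AdMETTL5 against AdGFP. Of the 9 genes, 8 were called by edgeR and 8 by DESeq2, where 52.8% of the 15041 genes tested were called by edgeR and 46.0% by DESeq2. Of these, 2 were higher with AdMETTL5 (Adcy1 and Adrb1) and 6 were lower, against 27.1% and 25.7% of all genes. The groups of each of the 8 did not overlap, as for 48.4% of all genes (25.2% higher and 23.2% lower), and 1 had an absolute log2 fold change over 1 (Adcy1), against 5.85%. These counts include Adcy1, which passed the filter on low counts only through the AdMETTL5 libraries, where it is higher. With 10 counts required in every library it dropped out, and 7 members were called, 1 higher and 6 lower (7760 over all genes). The median log2 fold change was -0.47 over the 9 genes and -0.00 over all genes, where the latter became 0.13 with library size alone.

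Adcy1 had 0, 3, 8 and 0 counts in AdGFP libraries 1 to 4 (0 to 0.467 CPM) and 27, 27, 35 and 39 counts in AdMETTL5 libraries 1 to 4 (1.81 to 2.48 CPM). The AdGFP libraries were thus near the limit of detection. Summed over the libraries, 11 counts with AdGFP and 128 with AdMETTL5 gave a ratio of 13.0 (95% exact interval 7.03 to 26.7, for counting error only). Since Adcy1 passed the filter on low counts only through the group where it is higher, its call is a description and no independent support. The fitted log2 fold change was 3.64 (adjusted p = 9.8e-05) and ranged from 3.23 to 4.98 with 1 library left out. Its direction was opposite to that in METTL5-cKO hearts after TAC, in another species, age and preparation.

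Adcy5 was 79.1, 81.9, 89.8 and 99.6 CPM with AdGFP and 46.5, 41.8, 46.4 and 57.6 CPM with AdMETTL5. All AdMETTL5 libraries were below all AdGFP libraries, and Adcy5 fell by 0.86 on the log2 scale (interval -1.07 to -0.65, adjusted p = 1.4e-05). Adcy6 was 146, 155, 163 and 163 CPM with AdGFP and 135, 138, 140.2 and 143 CPM with AdMETTL5. Its log2 fold change of -0.17 was called (adjusted p = 0.00818), but not with scaling by library size alone (-0.04, adjusted p = 0.619).

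Both α1 receptors among the members, which bind the PE in the medium, were lower with AdMETTL5. Adra1d, another α1 receptor outside the members, was higher, as given below. Adra1a was 20.0, 22.1, 18.4 and 21.8 CPM with AdGFP and 13.3, 13.2, 15.2 and 14.6 CPM with AdMETTL5, and fell by 0.55 (interval -0.72 to -0.37, adjusted p = 1.1e-04). Adra1b was 22.0, 22.5, 26.7 and 27.3 CPM with AdGFP and 16.5, 16.1, 16.7 and 14.6 CPM with AdMETTL5, and fell by 0.62 (interval -0.81 to -0.44, adjusted p = 6.7e-05). Adrb1 moved the other way, from 16.4, 16.2, 15.3 and 19.9 CPM to 22.7, 20.2, 24.3 and 20.2 CPM (log2 fold change 0.37, interval 0.17 to 0.57, adjusted p = 0.00525). Adra1b counts were 1.34 to 1.74 of the Adrb1 counts in AdGFP libraries and 0.689 to 0.797 in AdMETTL5 libraries, ranges that did not overlap. In the mouse tables this ratio overlapped between the groups.

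Of the phosphodiesterases, Pde3a was 32.1, 36.1, 39.7 and 45.7 CPM with AdGFP and 26.0, 25.8, 25.6 and 28.8 CPM with AdMETTL5, and fell by 0.53 (interval -0.74 to -0.32, adjusted p = 5.7e-04). Pde4b was 45.7, 45.7, 54.4 and 54.5 CPM with AdGFP and 36.3, 37.8, 32.9 and 37.9 CPM with AdMETTL5, and fell by 0.47 (interval -0.63 to -0.30, adjusted p = 2.6e-04). Pde4d was 24.7 to 33.2 CPM and 24.3 to 29.8 CPM, with a log2 fold change of -0.10 (interval -0.30 to 0.11, adjusted p = 0.404). The cardiomyocyte list moved in the same direction as 6 of these genes: all 10 of its markers were lower with AdMETTL5, with sums of 34085 to 43209 and 14845 to 16587 CPM. Of 8 fibroblast markers tested, 7 were lower too (11549 to 12167 and 9125 to 10056 CPM). Fibroblast markers were thus detected in both groups of cultures after pre-plating. In the mouse hearts, another species with separate scaling, that list summed to 3033 CPM or less. Of 4 atrial markers, 3 were lower and 1 higher (225 to 237 and 113 to 127 CPM), of 6 macrophage markers 3 were lower (95.5 to 113 and 67.8 to 83.4 CPM), and of 4 Schwann and nerve markers 3 were lower (22.4 to 27.3 and 14.2 to 16.4 CPM). Of 8 markers of smooth muscle and pericytes, 4 were higher and 1 lower (3353 to 4165 and 3907 to 4457 CPM), and of 6 endothelial markers 1 was higher (43.7 to 46.1 and 57.2 to 61.4 CPM). The part of cell makeup in these values was not tested.

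Adcy5 was called higher in METTL5-cKO hearts after TAC, where the log2 fold change of Adcy6 was below 0 without a call. Their count ratio, which no library scaling changes, was read in each library. Adcy5 counts were 0.219 to 0.266 of the Adcy6 counts in control TAC hearts (median 0.241) and 0.369 to 0.606 in METTL5-cKO TAC hearts (median 0.465), without overlap. At 3 months the ranges were 0.147 to 0.270 and 0.178 to 0.366, and at 1 month 0.0670 to 0.194 and 0.131 to 0.205, and both overlapped. In NRVMs the ratio was 0.527 to 0.611 with AdGFP and 0.303 to 0.403 with AdMETTL5. The groups were apart there in the other direction. The ratios of counts given for pairs of genes compare groups, not the levels of the genes, which differ in length. They were chosen after the values were seen and are given without a test.

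**Figure D3:**
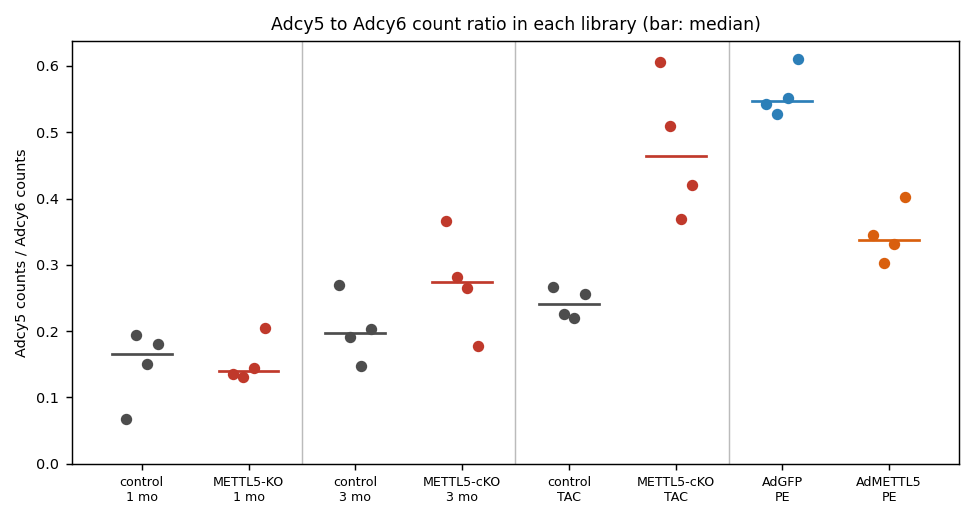
Ratio of Adcy5 to Adcy6 counts (y axis, from 0) in each library (points) of the 8 groups, with the group median as a bar. The ratio is 0.369 or more in METTL5-cKO hearts after TAC and 0.266 or less in the control TAC hearts, and lower with AdMETTL5 than with AdGFP in NRVMs.

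The wider pathway was read over a list of 74 other genes of adrenergic and cAMP signaling in 10 roles. At 1 month, 68 of these were tested and none was called by edgeR or DESeq2 (3 of 68 at an unadjusted p under 0.05, against 4.57% of all genes), and the smallest adjusted p, 0.973, was shared by many of them. At 3 months, 70 were tested and none was called by either tool (7 of 70 at an unadjusted p under 0.05, against 7.05% of all genes). The phosphodiesterases Pde1a and Pde1c, which calcium-calmodulin activates, had the smallest adjusted p there, with log2 fold changes of 0.57 and 0.46 (adjusted p = 0.326 and 0.441). The next were Rapgef3, a cAMP-activated exchange factor (-0.46), Akap5, a PKA anchor (-1.30), Pde10a (-0.53), the protein kinase C gene Prkcd (0.29), Rapgef4 (-0.43), the G protein gene Gnao1 (0.24), Adcy4 (-0.38) and the PKA inhibitor Pkia (-0.42).

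After TAC, 69 of the list were tested, 8 were higher and 9 lower in METTL5-cKO hearts, against 6.57% and 6.10% of all genes, and the median log2 fold change was -0.05. DESeq2 called 22, against 16.9% of the genes it tested. With library size alone the split was 11 higher and 5 lower. The highest log2 fold change among those called was that of Grk5, a kinase that phosphorylates agonist-bound receptors, at 1.15 (20.0 ± 1.36 CPM in control and 44.6 ± 12.7 CPM in METTL5-cKO hearts, adjusted p = 0.00923). Gnao1, the α subunit of Go, rose from 26.0 ± 1.77 to 49.5 ± 6.82 CPM (0.93, adjusted p = 0.00407), Pde1a rose by 0.85 and Prkar1a, the regulatory PKA subunit RIα, by 0.83. Popdc3, a cAMP-binding membrane protein, rose by 0.40, and the protein kinase C genes Prkcd and Prkca by 0.48 and 0.65. Among the lower genes, Pde4c fell by 0.91, Tnni3 (cardiac troponin I, a PKA target) by 0.84, and Rapgef3 by 0.63. The count of the list depended on the libraries: it was 4 when control TAC library 4 or METTL5-cKO TAC library 2 was left out, and 30 when METTL5-cKO TAC library 4 was. The count over all genes moved in the same direction in these fits, from 2071 to 478, 536 and 3899.

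In NRVMs, 65 of the list were tested, and 14 were higher and 25 lower with AdMETTL5, against 27.1% and 25.7% of all genes. With library size alone the split was 25 higher and 19 lower. Of 7 genes grouped on the list as PKA targets, 6 were lower. Among these were Mybpc3 (myosin binding protein C, log2 fold change -1.48), Tnni3 (-1.14) and Pln (phospholamban, the inhibitor of the calcium pump, -0.96). Ppp1r1a (an inhibitor of protein phosphatase 1) was another, at -1.83. The cAMP-binding Popeye proteins Popdc2 and Bves fell by 0.94 and 0.69. In contrast, the α1 receptor Adra1d rose from 3.22 ± 0.588 to 12.2 ± 2.38 CPM (1.92, adjusted p = 1.9e-06), opposite to Adra1a and Adra1b. Adcy3 rose by 1.10 from 12.0 ± 0.807 to 25.9 ± 2.87 CPM (adjusted p = 9.5e-07), Arrb2 (β-arrestin 2) by 1.07, and Rapgef4 by 0.91. The PKA targets Tnni3, Pln and Ryr2 are also on the cardiomyocyte list, all 10 of whose genes were lower.

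**Figure D4:**
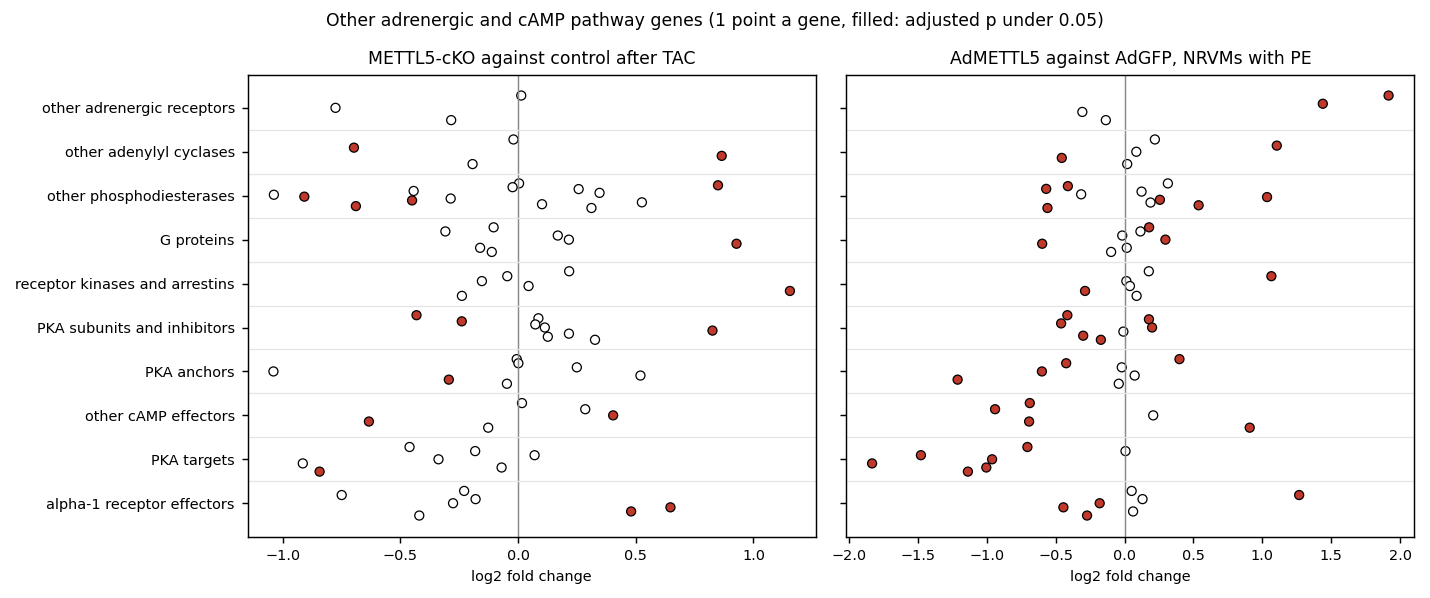
Log2 fold change (x axis, a different range in each panel) of the tested genes of the pathway list, grouped by role (y axis), after TAC and in NRVMs. Each point is 1 gene, and filled points have an adjusted p under 0.05. In NRVMs 6 of 7 genes grouped as PKA targets lie below 0 and are filled. After TAC the 8 higher and 9 lower genes are spread over the roles.

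Finally, the genes most like each member were sought over the 24 heart libraries, as Pearson's r of log2 CPM centred within each table, among 15543 genes. These are descriptions over libraries that share group and depth. For Adcy1 they were Rmnd1 (0.85), Gm31013 (0.83) and Apex2 (0.82), for Adcy5 Exoc4 (0.89), Ykt6 (0.88) and Cd164 (0.84), and for Adcy6 Cyp1a1 (0.91), Map3k5 (0.89) and Zcchc2 (0.88). Adra1b was closest to Dlst (0.92), Coq9 (0.92) and Uqcc1 (0.91), Adra1a to Asb10 (0.86), Focad (0.85) and Fyco1 (0.85), and Adrb1 to Snapc2 (0.75), Mtif3 (0.75) and Slc25a13 (0.74). Pde4b also had Snapc2 as its closest gene (0.85), before Ankrd13c (0.82) and Ube2nl (0.80). Pde3a was closest to Ccdc47 (0.86), Nfs1 (0.86) and Gm5131 (0.86), and Pde4d to Hectd4 (0.86), Cplane1 (0.81) and Ppl (0.81). Among the members themselves, the highest correlation was that of Adra1a with Adra1b (0.74). Next came Adcy6 with Pde4d (0.70) and Adra1a with Pde3a (0.69), and the lowest was that of Adcy1 with Adcy5 (-0.49).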

How the data were processed

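Hearts of mice and cultured NRVMs were sequenced in 4 comparisons of 4 against 4 samples. The authors aligned the reads with HISAT2 2.0.4 to GRCm38 or Rnor_6.0 and made estimated counts per gene with StringTie 2.1.4 (versions from the submitters' processing notes), and these were deposited as whole numbers without scaling. The plan had assumed plain counts, and the tests were run on the estimated counts as such. Strandedness is not given in the sources used here. The columns at 1 month match single samples. The other columns match a group only, and their libraries are numbered in the order of the numbers in the column names.

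Tables were fitted one by one with edgeR 4.0.16 under R 4.3.3, using TMM, filterByExpr (minimum count 10, minimum total 15), glmQLFit and glmQLFTest, and Benjamini-Hochberg adjustment over all genes tested. For each gene, mean log2 CPM (prior count 2) was also compared by exact permutation, two-sided. Alternatives were DESeq2 1.42.0, its size factors, library size alone, other filters on low counts, an absolute log2 fold change over 1, a replicate block and leaving out each library. Data were simulated with the same spread between libraries for every gene, and with changes of 1.5 or 3 on the log2 scale in genes with higher counts. On these data the fits recovered all 100 changed genes of each fold size, and false calls numbered 8 to 15 per comparison. Recovery of smaller changes, or of genes with few counts or more spread, was not tested. Named are all members, the 10 pathway genes with the smallest adjusted p in each comparison, the 3 genes most correlated with each member, and Mettl5. Where the adjusted p was tied at 1 month, no pathway gene is named. Members, lists and tests were chosen with earlier results of these data known. For 2 rat genes with 2 rows, the row with more counts was used.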

Additional observations from a re-analysis of the deposited data

Results flagged for a closer look

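Within groups of 4, a library was set apart where the gap between the highest or lowest value and its neighbour took up more of the group's range than Dixon's 95% critical value for 4 samples. Of 72 groups of values (9 genes in 8 groups), 4 held such a library, and chance gives about 1 in 20. Adcy6 was 335 CPM in control library 1 at 1 month, against 146 to 175 CPM in the other controls, and this is the library that correlates least with its group. Pde4b was 4.81 CPM in control library 3 at 3 months, against 16.8 to 18.9 CPM in the others. Without it, the log2 fold change of Pde4b at 3 months was -0.18 in place of 0.11. Pde3a was 22.6 CPM in control TAC library 3, against 32.1 to 33.2 CPM in the others. Pde3a was also 28.8 CPM in AdMETTL5 library 4, against 25.6 to 26.0 CPM in the others, which is below all AdGFP libraries.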

How the results depend on the processing

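Over 476 values of the members under the alternatives, 442 kept their direction and side of the threshold, 27 reversed, 1 lost its call (Adcy6 in NRVMs with library size alone) and 6 gained one. None of the called values reversed. The count of members called became 1 with DESeq2 at 1 month and 4 with DESeq2 after TAC, and with an absolute log2 fold change over 1 it was 1 after TAC and 1 in NRVMs. The pathway count of 17 after TAC was 10 with no filter on low counts, 1 with the fold limit and 4 to 30 with 1 library left out, where the count of 2071 over all genes was 1052, 474 and 478 to 3899. The pathway count of 39 in NRVMs was 11 with the fold limit, and that over all genes went from 7949 to 880. The cause was not tested beyond what the limits themselves remove. Scaling by library size alone reversed Adra1a (0.066) at 1 month, Pde4d (0.0028) at 3 months, Pde3a (0.049) and Pde4b (0.022) after TAC, and Pde4d (0.036) in NRVMs, and no filter on low counts reversed Adra1a at 1 month (0.0092). With 1 library left out at 1 month, values ranged from -0.17 to 0.16 for Adra1a, -0.23 to 0.20 for Adcy1, -0.017 to 0.12 for Adcy5 and -0.28 to 0.20 for Adcy6. At 3 months they ranged from -0.35 to 0.68 for Adra1a, -0.19 to 0.11 for Adra1b, -0.083 to 0.057 for Adcy6, -0.18 to 0.26 for Pde4b and -0.23 to 0.11 for Pde4d. Library size alone raised the share of higher calls among all genes from 51.9% to 79.7% after TAC and from 51.4% to 71.5% in NRVMs. Adcy1 in NRVMs had no value where 10 counts in every library were required.

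A replicate block at 1 month left the calls at 0 members and 0 pathway genes. Same-numbered libraries correlated in their deviations at 0.24, 0.12, -0.11 and 0.08, and the other pairs at -0.28 to 0.19. Whether the number pairs the libraries was not tested. No paired analysis was possible for the other tables because their columns carry no replicate numbers shared by both groups.

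Depth limits Adcy1 most, with 0 to 66 counts per library.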
